A study of Danio rerio with 18 samples.

Results

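Wild type zebrafish retinas dissected together with their retinal pigment epithelium (RPE) were compared with wild type retinas freed of it. The comparison rests on 6 of the 18 arrays of the series, 3 of RPE-attached retina and 3 of bare retina, chosen by the tissue and genotype in their labels. Both groups were wild type embryos of the AB strain at 52 hours post fertilization, and the labels name no treatment. Each array held 1 pool of 10 tissues, and the pools are labelled as separate biological replicates. The other arrays held wild type whole embryos in pools of 10, and the same tissues of young, a smarca4 mutant, whose RPE-attached pools held 6 tissues each. The study used this tissue contrast to estimate RPE expression, so the question here is which transcripts were higher with the layer attached and which were lower.

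The RPE is a single layer of pigmented epithelial cells between the photoreceptors and the choroidal vessels. It takes retinol from the blood, turns all-trans retinyl esters back into 11-cis retinoid for the photoreceptors, absorbs stray light with melanin and engulfs shed outer segments. In the zebrafish eye the back of the RPE also borders neural crest pigment cells, periocular mesenchyme and vessels, and whatever of these stays on the dissected tissue is measured with it. The arrays measured bulk RNA, so fewer cells of a type and less RNA per cell cannot be told apart.

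Values are log2 signals as deposited, and changes are RPE-attached minus bare retina on the log2 scale ± SE, with n = 3 arrays per group. A gene was called at a limma adjusted p under 0.05, with Benjamini-Hochberg adjustment over 15502 probe sets, and of several probe sets for a gene the brightest on average was used. The p-values measure the spread between pools. Fold is a ratio above 1 in the direction stated, and none is given where the lower group lay under a signal of 5.15, the 30th percentile of group means, taken here as the floor. Of 8793 genes, 1351 (15.4%) were higher and 1360 (15.5%) lower in RPE-attached retina. The counts of each gene list below are to be read beside these shares. A change of at least 2-fold was reached by 63 higher genes (0.716%) and by 63 lower genes (0.716%), and only the higher side held changes of at least 4-fold, 9 genes. The 3 arrays of one group lay wholly above the 3 of the other for 2306 genes higher in RPE-attached retina (26.2%) and for 2026 genes lower in it (23%).

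The arrays of both groups also differed in control signals and in the spread of signal. The mean of the 12 poly-A control probe sets, which report RNAs spiked in before labelling, was 5.86, 5.86 and 6.0 on the RPE-attached arrays, against 4.90, 5.23 and 5.25 on the retina arrays. The mean of the 9 hybridization control probe sets was 9.41, 9.46 and 9.51 on the RPE-attached arrays, and 10.24, 9.39 and 9.13 on the retina arrays in replicate order. The SD of signal over probe sets was 2.09 to 2.13 on the RPE-attached arrays and 2.19 to 2.23 on the retina arrays. The 3′ GAPDH control probe set exceeded the 5′ one by 2.68 to 3.03 on the RPE-attached arrays and by 2.93 to 3.18 on the retina arrays. In the 10 bins of equal size by signal, the median change ran from 0.17 in the fourth bin to -0.14 in the ninth, above 0 in the 6 dimmer bins and below 0 in the 4 brighter ones. Subtracting each array's median turned the split of called genes to 945 higher and 1762 lower. The labels give no scan date, so array run and tissue group cannot be told apart, and the part of these differences in the results below was not tested.

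**Figure D1:**
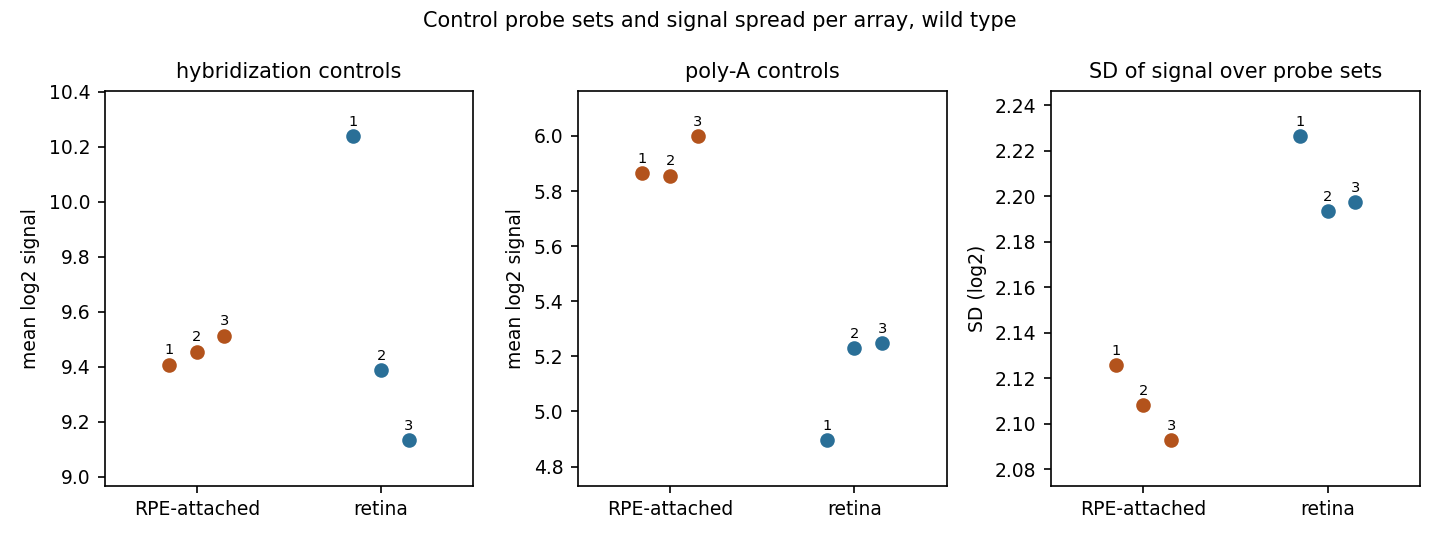
Mean log2 signal of the hybridization controls and of the poly-A controls, and the SD of log2 signal over probe sets, for each wild type RPE-attached and retina array, with points numbered by replicate. The poly-A means are above 5.8 on all 3 RPE-attached arrays and below 5.3 on all 3 retina arrays.

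RPE markers were higher in the group labelled RPE-attached. Of the 12 genes listed as RPE markers 7 were on the array, of which 6 were higher in RPE-attached retina and 1, otx2b, was lower. The summed linear signal of the 7 was 5274 to 6232 in RPE-attached retina and 3781 to 4998 in bare retina. The bare retina sum was carried by otx2b, with a mean log2 signal of 11.90 there, beside 7.32 for dct, the next brightest. The sum therefore gives little of the size of the rise in the 6 that were higher. The marker with the largest change was rpe65a, which encodes the isomerohydrolase that makes 11-cis retinol. It had 10.16, 9.62 and 9.71 in RPE-attached retina, against 6.28, 6.42 and 6.62 in bare retina, and the groups were far from overlapping. Its change of 3.39 ± 0.18 (10.5-fold, adjusted p = 1.26e-09) was the largest among the 8793 genes. The other probe set of rpe65a, dimmer in both groups, was also higher, by 1.56. The uncharacterised locus wu:fc46h12 had the next largest change, at 3.16, with a mutant change of 3.2. Bare retina also gave signal for these transcripts: rpe65a, dct, rgrb, pmelb and stra6 all had mean signals there above the floor, with dct at 7.32 and rgrb at 7.17.

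Visual cycle genes divided into a few with large changes and many with none called. Of 25 measured genes of the visual cycle and retinoid handling, 9 were higher (36%) and none lower. Their median change was 0.17, beside 0.03 over all genes. The retinol receptor gene stra6, whose product takes up retinol from its plasma carrier, had 7.70, 7.77 and 7.43 in RPE-attached retina, against 5.46, 5.64 and 5.23 in bare retina (change 2.19 ± 0.17, 4.56-fold, adjusted p = 1.16e-07). The gene rgrb encodes a retinal-binding opsin of RPE and Müller glia. It had 9.40, 9.08 and 8.90 in RPE-attached retina, against 7.15, 7.03 and 7.32 in bare retina (change 1.96 ± 0.15, 3.89-fold, adjusted p = 7.58e-08). In both genes every RPE-attached array was above every retina array. Smaller rises passed for bco1, which cleaves beta-carotene to retinal (0.75 ± 0.12), for scarb1, a receptor for carotenoid uptake (0.41 ± 0.12), and for cyp26a1, which degrades retinoic acid (0.68 ± 0.20). The calls of scarb1 and cyp26a1 were each lost without RPE-attached replicate 3 (adjusted p = 0.0674 and 0.0543), scarb1 also without retina replicate 1 (0.0811) and cyp26a1 without RPE-attached replicate 1 (0.0625). The other probe set of scarb1 was higher by 0.97 (adjusted p = 1.32e-05). The rise of rbp3, the retinoid carrier of the interphotoreceptor matrix, came from signals of 4.43 to 4.68 in RPE-attached retina and 3.86 to 3.93 in bare retina, under the floor in both groups. For rlbp1a, a binding protein for 11-cis retinoids, the signals were 9.98, 9.79 and 9.84 in RPE-attached retina and 9.61, 9.75 and 9.74 in bare retina. Its change of 0.17 ± 0.10 did not pass (adjusted p = 0.221).

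Melanin genes were led by pmelb and dct. The parts of RPE and of neural crest pigment cells in the signals of melanin genes were not tested. The gene pmelb encodes the fibril protein on which melanin is laid down in the melanosome. It had 8.77, 9.13 and 7.95 in RPE-attached retina, against 5.94, 5.50 and 5.83 in bare retina (change 2.86 ± 0.21, 7.27-fold, adjusted p = 6.08e-08). The SD among the RPE-attached arrays was 0.61 for pmelb, against 0.22 for dct, so the pools varied more in pmelb. The dopachrome tautomerase gene dct had 9.999, 10.01 and 9.63 in RPE-attached retina, against 7.41, 7.13 and 7.42 in bare retina (change 2.56 ± 0.15, 5.90-fold, adjusted p = 2.96e-09). Tyrosinase, the rate-limiting enzyme of melanin synthesis, had a smaller measured change. Signals of tyr were 5.63, 5.74 and 5.41 in RPE-attached retina, against 5.01, 5.11 and 5.39 in bare retina (change 0.42 ± 0.12, adjusted p = 0.0103). Both group means, 5.59 and 5.17, were only a little above the floor. Whether low signal limited the change of tyr beside those of pmelb and dct was not tested. The lowest RPE-attached array of tyr was only just above its highest retina array. The call was lost without RPE-attached replicate 2 (adjusted p = 0.0576) or retina replicate 1 (adjusted p = 0.0666). Of the 10 measured genes listed under melanin synthesis, 4 were higher (40%) and 1 lower (10%), with a median of 0.29. Rises also passed for pcbd1 (0.72 ± 0.12) and qdpra (0.38 ± 0.10), which recycle tetrahydrobiopterin. Signals of qdpra were under the floor in both groups, and its other probe set was not called (0.06, adjusted p = 0.776). The listed gene that fell was ddt, which is not dct but a D-dopachrome tautomerase of the macrophage inhibitory factor family. Its change was -0.85 ± 0.18 (adjusted p = 0.00196), while its other probe set was not called (-0.12).

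Among 31 measured genes of melanosome structure, sorting and transport 9 were higher (29.0%) and 5 lower (16.1%), with a median of 0.14. The small GTPase gene rab32a, which acts in carrying enzymes to the melanosome, had 7.60, 7.91 and 7.57 in RPE-attached retina, against 6.12, 6.10 and 6.07 in bare retina (change 1.59 ± 0.16, 3.02-fold, adjusted p = 1.70e-06). The gene hps4 encodes a subunit of the exchange factor for that GTPase and changed by 1.08 ± 0.11 (2.12-fold). The tetraspanin gene cd63 of late endosomes and melanosomes had 10.37, 10.03 and 10.15 in RPE-attached retina, against 9.30, 8.99 and 9.31 in bare retina (change 0.98 ± 0.13). The groups did not overlap in any of these genes. The genes that fell included snapin, a BLOC-1 subunit (-0.76 ± 0.13), and tmem33, a membrane protein of the endoplasmic reticulum (-0.57 ± 0.10).

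V-ATPase subunits, which acidify lysosomes and melanosomes, were called only in the lower direction. Of 15 measured V-ATPase genes, none was higher and 6 were lower (40%), with a median of -0.19. The accessory subunit gene atp6ap2 had 8.33, 8.04 and 7.52 in RPE-attached retina, against 9.24, 8.53 and 9.09 in bare retina (change -0.99 ± 0.26, adjusted p = 0.00807). The membrane subunit atp6v0d1 had 9.97, 9.88 and 9.79 in RPE-attached retina and 10.36, 10.33 and 10.30 in bare retina, a change of -0.45 ± 0.11. Both genes were lower on every RPE-attached array, and the call of atp6ap2 was lost without RPE-attached replicate 3 (adjusted p = 0.0606). V-ATPase genes lie high in signal, with a median of 9.63 in bare retina, and after a cyclic loess normalization chosen after seeing the data 3 of the 15 were lower. Of 37 lysosomal genes, 3 were higher (8.1%) and 7 lower (18.9%), beside 15.4% and 15.5% over all genes, and the counts were 5 and 5 under cyclic loess. Those that fell included npc1, the lysosomal cholesterol transporter (-0.67 ± 0.12), the protease gene lgmn (-0.68 ± 0.15) and ctsd, cathepsin D, a protease that digests outer segments in the mammalian RPE (-0.37 ± 0.10).

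**Figure D2:**
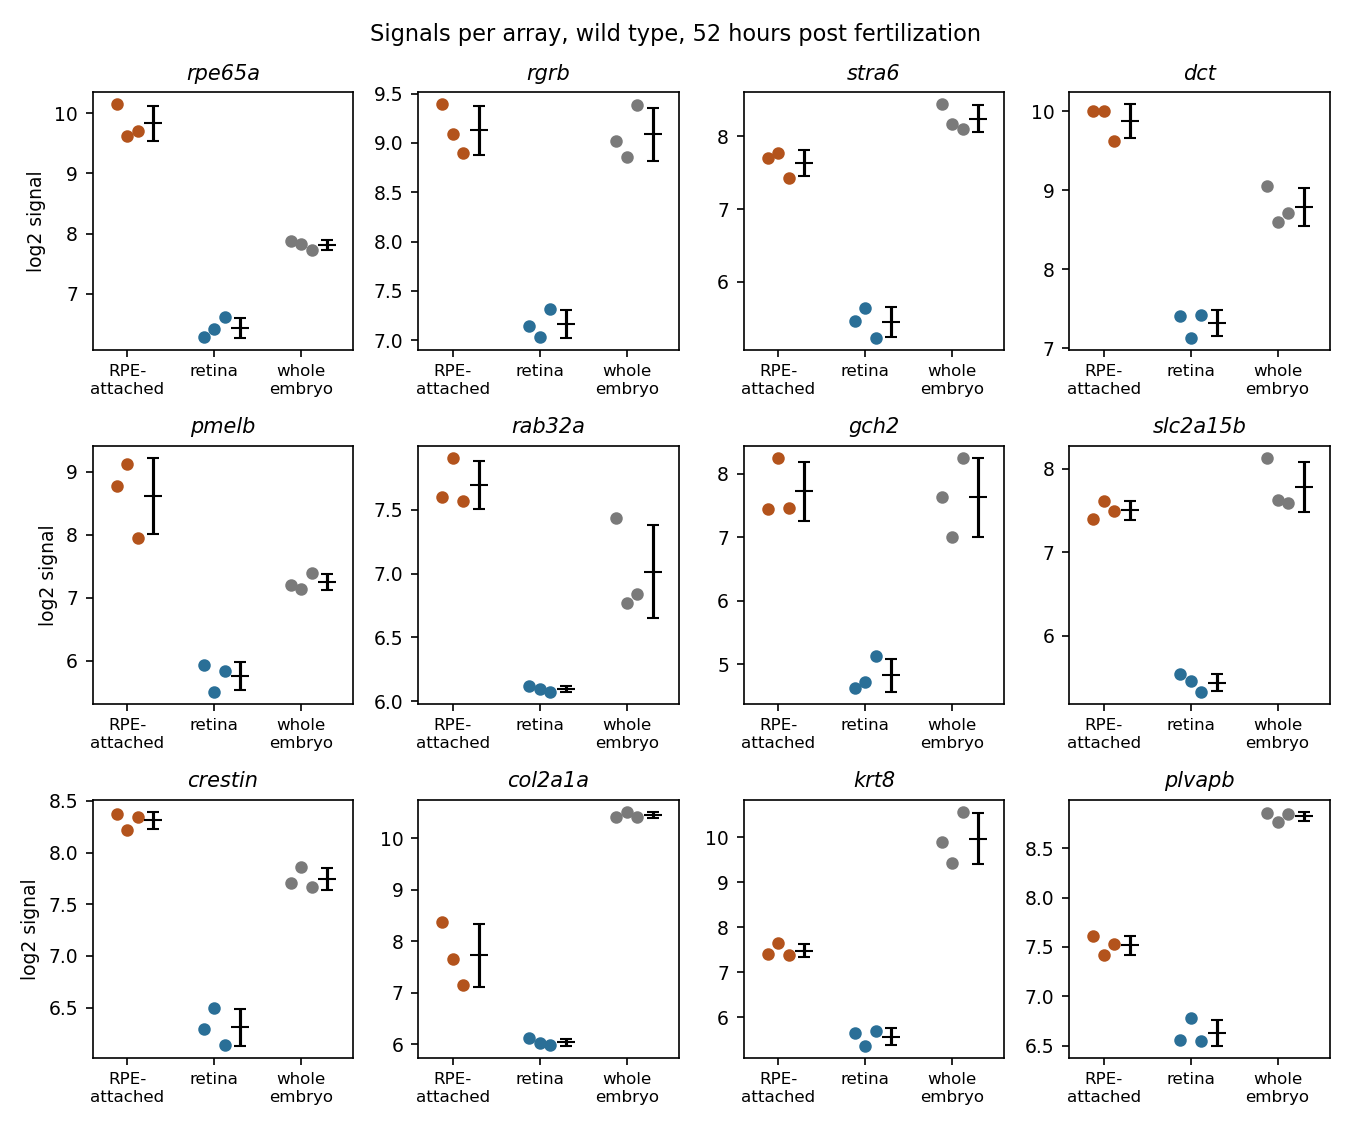
Log2 signal of 12 genes on each wild type array, with points for arrays and bars for the mean ± SD (n = 3), for RPE-attached retina, bare retina and whole embryo. All 12 are higher on every RPE-attached array than on every retina array, and whole embryos lie above RPE-attached retina for col2a1a, krt8, plvapb and stra6 but below it for rpe65a, dct and pmelb.

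Transcription factors of the RPE were called in both directions. The melanophore and RPE factor gene mitfa had 5.88, 6.12 and 5.95 in RPE-attached retina, against 4.57, 4.96 and 5.25 in bare retina (change 1.05 ± 0.16, adjusted p = 0.000117). Its paralogue mitfb had 5.59, 5.66 and 5.64 in RPE-attached retina and 5.62, 5.69 and 5.72 in bare retina (change -0.05 ± 0.11, adjusted p = 0.782), with overlapping groups. The otx2 paralogues went in opposite directions. Signals of otx2a were 6.10, 6.26 and 6.33 in RPE-attached retina and 5.64, 5.66 and 5.91 in bare retina (change 0.49 ± 0.14, adjusted p = 0.0117). Signals of otx2b, also a factor of photoreceptor and bipolar precursors, were 11.30, 11.57 and 11.40 in RPE-attached retina and 12.13, 11.69 and 11.90 in bare retina (change -0.48 ± 0.13, adjusted p = 0.00885). Without retina replicate 1 neither call held (adjusted p = 0.0543 for otx2a and 0.0649 for otx2b), and that of otx2a was also lost without RPE-attached replicate 3 (0.054). Of the 28 measured genes of RPE regulation, transport and phagocytosis, 8 were higher (28.6%) and 4 lower (14.3%). Their median of 0.04 became negative under cyclic loess, repeated quantile normalization and subtraction of array medians. The phagocytosis ligand gene gas6 rose by 0.42 ± 0.10. The secreted protease inhibitor gene cst3, abundant in the mammalian RPE, had 7.33, 7.47 and 7.37 in RPE-attached retina, against 8.48, 8.77 and 8.39 in bare retina. Its fall of -1.16 ± 0.15 (2.23-fold lower, adjusted p = 1.81e-05) was the largest decrease in that list.

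Genes of other pigment cells were also higher. Of 15 measured xanthophore genes, 11 were higher (73.3%) and 1 lower (6.7%), with a median of 0.75. The gene gch2 encodes the GTP cyclohydrolase of pteridine synthesis in yellow pigment cells. It had 7.45, 8.25 and 7.46 in RPE-attached retina, against 4.62, 4.72 and 5.12 in bare retina (change 2.90 ± 0.31, adjusted p = 3.02e-06), where all 3 arrays were under the floor. The xanthophore transporter gene slc2a15b had 7.39, 7.62 and 7.49 in RPE-attached retina, against 5.54, 5.45 and 5.32 in bare retina (change 2.06 ± 0.15, 4.18-fold, adjusted p = 2.38e-08). Its relative slc2a11b changed by 1.3 ± 0.14 from a retina mean under the floor. Other probe sets gave a smaller rise for slc2a15b (0.42) and no call for gch2 (0.10). The other xanthophore markers on the array, pax7a and csf1ra, were not called, at 0.20 and 0.12, although the most variable probe set of pax7a was higher, by 0.74 (adjusted p = 0.00777). The summed signal of gch2, pax7a and csf1ra was 238 to 379 in RPE-attached retina and 83.7 to 99.3 in bare retina, carried by gch2.

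Iridophores, the reflective cells, were represented by 9 measured genes, of which 6 were higher (66.7%) and none lower, with a median of 0.55. The defensin-like gene defbl1 had 9.11, 9.46 and 8.87 in RPE-attached retina, against 5.86, 6.55 and 6.71 in bare retina (change 2.77 ± 0.18, 6.83-fold, adjusted p = 1.1e-08). The purine synthesis genes atic and gart, which feed both guanine crystals and pteridines and so stand in both lists, had changes of 1.28 ± 0.13 and 1.06 ± 0.15. None of the 3 defining iridophore markers listed was on the array, and the part of those cells was not tested.

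Neural crest genes were higher in 14 of 25 cases (56%) and lower in 3 (12%), with a median of 0.42. The list's median signal in bare retina was low, at 5.22, and repeated quantile normalization left 11 higher and 2 lower. The zebrafish crest marker crestin had 8.37, 8.22 and 8.34 in RPE-attached retina, against 6.29, 6.50 and 6.14 in bare retina (change 2.00 ± 0.14, 4.01-fold, adjusted p = 1.51e-08). The crest factor sox10 had 8.26, 8.23 and 8.35 in RPE-attached retina and 7.44, 7.52 and 7.61 in bare retina (change 0.76 ± 0.12). The factor foxd3 changed by 0.75 ± 0.17 and the repressor of epithelial genes snai1a by 1.35 ± 0.14, the latter from a retina mean under the floor. The 3 members that fell were the AP-2 factors tfap2a, tfap2b and tfap2c, a family that also acts in amacrine and horizontal cells. The calls of tfap2a and tfap2c were lost without RPE-attached replicate 3 (adjusted p = 0.0865 and 0.0975) or retina replicate 1 (0.104 and 0.11), and that of tfap2c without retina replicate 3 (0.107). The third, tfap2b, had 10.45, 10.21 and 10.27 in RPE-attached retina, against 11.39, 11.07 and 10.97 in bare retina (change -0.83 ± 0.16). The summed signal of the 3 defining markers, crestin, sox10 and foxd3, was 672 to 730 in RPE-attached retina and 293 to 322 in bare retina.

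**Figure D3:**
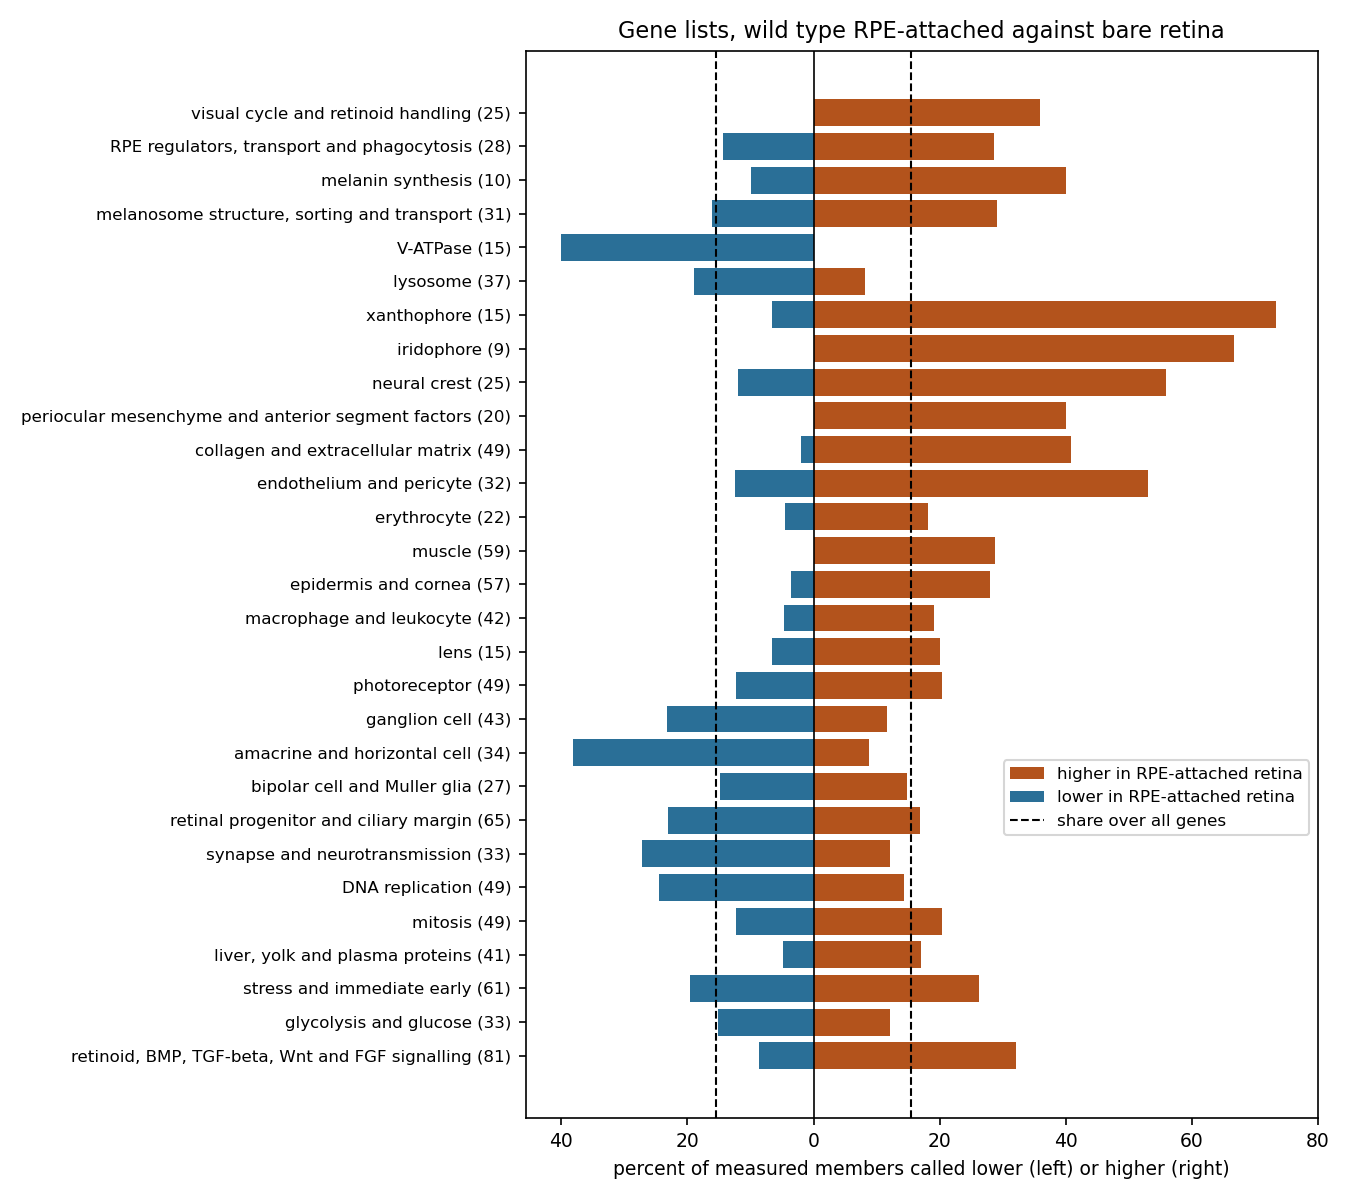
Share of the measured members of each gene list called higher (right) or lower (left) in wild type RPE-attached against bare retina, with the number measured in brackets and dashed lines at the shares over all genes, 15.4% and 15.5%. Xanthophore, iridophore, neural crest and endothelial lists have the largest shares higher, and V-ATPase and amacrine and horizontal cell lists the largest shares lower.

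Matrix genes of connective tissue were also higher. Of 49 genes of collagen and extracellular matrix, 20 were higher (40.8%) and 1 lower (2.0%), beside 15.4% and 15.5% over all genes. The median was 0.37, at a low median signal of 5.36 in bare retina, where changes of all probe sets were shifted upward. Repeated quantile normalization left 15 higher and subtraction of array medians 14, each with 1 lower. The type II collagen gene col2a1a of cartilage and sclera had 8.37, 7.66 and 7.14 in RPE-attached retina, against 6.11, 6.01 and 5.97 in bare retina (change 1.70 ± 0.21, 3.24-fold, adjusted p = 1.32e-05). The RPE-attached pools were spread over more than a log2 unit, and the lowest of them was still above all retina pools. Type I collagen col1a1a was spread likewise, with 7.4, 6.86 and 6.12 in RPE-attached retina and 5.68, 5.58 and 6.09 in bare retina (change 1.01 ± 0.22). The collagen chaperone gene serpinh1b had 8.68, 8.71 and 8.19 in RPE-attached retina, against 6.79, 6.64 and 7.05 in bare retina (change 1.70 ± 0.22). Rises also passed for col9a2 (1.2 ± 0.15), the matrix protein gene sparc (1.27 ± 0.14), the basement membrane laminin gene lamb1a (1.28 ± 0.14) and cnmd, chondromodulin (1.1 ± 0.15). The retina means of lamb1a and cnmd, 5.13 and 4.72, were under the floor. The member that fell was col15a1b, at -0.30, a call lost without any single one of the 6 arrays (adjusted p = 0.0511 to 0.142).

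Periocular mesenchyme and anterior segment factors were higher in 8 of 20 cases (40%) and lower in none, beside 15.4% and 15.5% over all genes. The median was 0.28, at a median signal of 5.0 in bare retina, under the floor. Repeated quantile normalization left 5 higher, and subtraction of array medians left 6 higher and 1 lower. Transforming growth factor beta-induced, tgfbi, a matrix protein of the cornea in mammals, had 6.82, 6.18 and 5.69 in RPE-attached retina, against 4.87, 4.84 and 5.01 in bare retina (change 1.33 ± 0.19). The mesenchymal factor foxc1a had 7.13, 6.62 and 6.24 in RPE-attached retina and 5.83, 6.24 and 5.61 in bare retina (change 0.77 ± 0.18, adjusted p = 0.00413), and these groups met at 6.24. Its paralogue foxc1b changed by 0.69 ± 0.15 from a retina mean under the floor. Of the 8 listed cartilage and mesenchyme markers 5 were measured and 4 were higher, with a summed signal of 441 to 787 in RPE-attached retina and 292 to 309 in bare retina. Whole embryos had 13209.5 to 15373 by that sum.

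Signalling genes came next. Among 81 genes of retinoid, bone morphogenetic protein, transforming growth factor beta, Wnt, hedgehog and fibroblast growth factor signalling, 26 were higher and 7 lower, with a median of 0.23. The higher genes included gli3, a hedgehog pathway factor (0.76 ± 0.13), the receptor gene fgfr3 (0.62 ± 0.12), smad6a, an inhibitor of bone morphogenetic protein signalling (0.60 ± 0.11), and tcf7l1a, a Wnt pathway factor (0.61 ± 0.11). The list has a low median signal of 5.91 in bare retina, in the range where changes of all probe sets were shifted upward.

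Vessel genes showed 17 members higher (53.1%) and 4 lower (12.5%) of 32 measured, with a median of 0.42. The list's median signal in bare retina was low, at 5.46, and repeated quantile normalization left 14 higher and 4 lower. The gene plvapb, which encodes the diaphragm protein of fenestrated endothelium such as the choriocapillaris, had 7.61, 7.41 and 7.53 in RPE-attached retina, against 6.56, 6.78 and 6.55 in bare retina (change 0.89 ± 0.11, 1.85-fold, adjusted p = 1.00e-05). The water channel gene aqp1a.1 of endothelium, red cells and other epithelia had 8.72, 8.97 and 8.53 in RPE-attached retina, against 7.16, 7.53 and 7.38 in bare retina (change 1.39 ± 0.13, 2.61-fold). The receptor gene flt4 of veins and lymphatics changed by 0.82 ± 0.10, and the endothelial receptor gene kdrl by 0.48 ± 0.16 (adjusted p = 0.03). The kdrl call was lost without any single RPE-attached replicate (adjusted p = 0.0529 to 0.0955) and without retina replicate 1 (0.124). Those that fell included tpst1, a tyrosine sulfotransferase (-0.89 ± 0.11). The summed signal of the 3 endothelial markers measured, plvapb, kdrl and tie1, was 325 to 339 in RPE-attached retina and 194 to 228 in bare retina.

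In the fit of all 18 arrays, blood genes were higher in shares near that over all genes. Of 22 erythrocyte genes, 4 were higher (18.2%) and 1 lower (4.5%), beside 15.4% and 15.5% over all genes, with a median of 0.16. The erythrocyte count depended on the setting. A fit of only the 6 arrays compared gave 8 of the 22 higher, beside 1600 of 8793 over all genes, and repeated quantile normalization gave 3. The abundant embryonic alpha globin gene hbae3 had 12.24, 11.77 and 11.69 in RPE-attached retina and 11.20, 11.40 and 11.53 in bare retina (change 0.52 ± 0.23), and it was not called (adjusted p = 0.0912). The beta globin gene hbbe2 had 7.64, 7.03 and 7.22 in RPE-attached retina, against 6.65, 6.64 and 6.46 in bare retina (change 0.71 ± 0.21, adjusted p = 0.0153), a call lost without RPE-attached replicate 1 (0.0882) or retina replicate 3 (0.0519). Of 42 macrophage and leukocyte genes, 8 were higher and 2 lower, with a median of 0.17. Myeloperoxidase, mpx, an enzyme of neutrophil granules, had 7.04, 7.07 and 7.01 in RPE-attached retina, against 6.07, 6.10 and 6.31 in bare retina (change 0.88 ± 0.10). Of its other probe sets, the most variable was not called (0.08, adjusted p = 0.713). Rises of the leukocyte actin regulators coro1a and lcp1 were 0.93 ± 0.13 and 0.74 ± 0.14. The chemokine receptor gene cxcr4b fell, with 6.87, 7.06 and 6.92 in RPE-attached retina and 8.21, 7.59 and 8.05 in bare retina (change -1.0 ± 0.19).

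Keratins of simple epithelia were higher. The gene krt8 had 7.41, 7.65 and 7.38 in RPE-attached retina, against 5.65, 5.36 and 5.70 in bare retina (change 1.91 ± 0.24, 3.76-fold, adjusted p = 1.87e-05). Its partner krt18a.1 had 8.04, 8.26 and 7.97 in RPE-attached retina, against 6.15, 6.61 and 6.49 in bare retina (change 1.67 ± 0.15, 3.19-fold, adjusted p = 5.73e-07). A second partner, krt18b, changed by 1.61 ± 0.16 from a retina mean under the floor. These keratins pair in simple epithelia, the RPE of vertebrates among them. The skin markers krt4, krt5, epcam and cldnb changed by 0.34, -0.19, -0.21 and -0.02 and none was called, while tp63, the factor of basal epidermal cells, rose by 0.38 on its brightest probe set and was not called on its most variable one (-0.032). The summed signal of the 6 skin and cornea markers was 274 to 310 in RPE-attached retina and 286 to 299.5 in bare retina, with krt5, epcam and cldnb under the floor in both. Over 57 epidermis and cornea genes 16 were higher (28.1%) and 2 lower (3.5%), beside 15.4% and 15.5% over all genes. At least 2-fold higher were 6 of the 57. Of 18 keratin genes, 8 were higher and none lower. The epidermis and cornea list had a median signal of 4.58 in bare retina, and 33 members had both groups under the floor. Repeated quantile normalization left 11 of the 57 higher and 2 lower. The 2 members that fell were the junction genes jupa (-1.32 ± 0.12) and perp (-0.71 ± 0.11, with another probe set not called at 0.36). The plakoglobin gene jupa had 7.66, 7.95 and 7.56 in RPE-attached retina, against 9.18, 8.96 and 8.97 in bare retina.

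Muscle genes were higher in 17 of 59 cases (28.8%) and lower in none, with a median of 0.21. Their median signal in bare retina was low, at 5.09, and 22 of them had both groups under the floor. Repeated quantile normalization left 10 higher and 1 lower. Myoglobin, mb, the oxygen-binding protein of muscle and some other tissues, had 8.27, 8.26 and 7.83 in RPE-attached retina, against 6.73, 6.78 and 6.70 in bare retina (change 1.39 ± 0.12, 2.61-fold, adjusted p = 3.23e-07). The enolase gene eno3 changed by 1.29 ± 0.17. The fast muscle markers mylpfa, tnnt3b, ckma and pvalb2 were not called, at 0.26, 0.18, 0.32 and 0.29, and their summed signal was 303 to 424 in RPE-attached retina and 282 to 297 in bare retina. Whole embryos had 45339 to 48454 by that sum. Lens genes were higher in 3 of 15 cases (20%, beside 15.4% over all genes) and lower in 1. A fit of only the 6 arrays compared gave 7 of the 15 higher, beside 1600 of 8793 over all genes, and repeated quantile normalization gave 1. The summed signal of 4 lens markers was 258 to 308 in RPE-attached retina and 215 to 233 in bare retina.

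Whole embryos gave a further level against which the higher genes could be set. Among the 63 genes at least 2-fold higher in RPE-attached retina, 41 (65.1%) had a whole embryo mean above both eye tissues, beside 27.2% over all genes. Among all 1351 higher genes the count was 350 (25.9%), near that share. Wide gaps were those of col1a1a, at 6.79 in RPE-attached retina, 5.78 in bare retina and 13.02 in whole embryos, and of tgfbi, at 11.05 in whole embryos. Most RPE markers had a different order, except stra6, which was at 8.24 in whole embryos. The mean of rpe65a was 9.83 in RPE-attached retina, 6.44 in bare retina and 7.81 in whole embryos, and that of rgrb was 9.13, 7.17 and 9.09 in the same order of tissues. For defbl1 and crestin, RPE-attached retina was also above the whole embryo, which had 7.96 and 7.75. Since the higher genes were chosen on the RPE-attached arrays, these counts are a description. The sums above were also higher in RPE-attached retina for the markers of crest, mesenchyme and vessels, and the part of those cells in each list's counts was not tested.

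**Figure D4:**
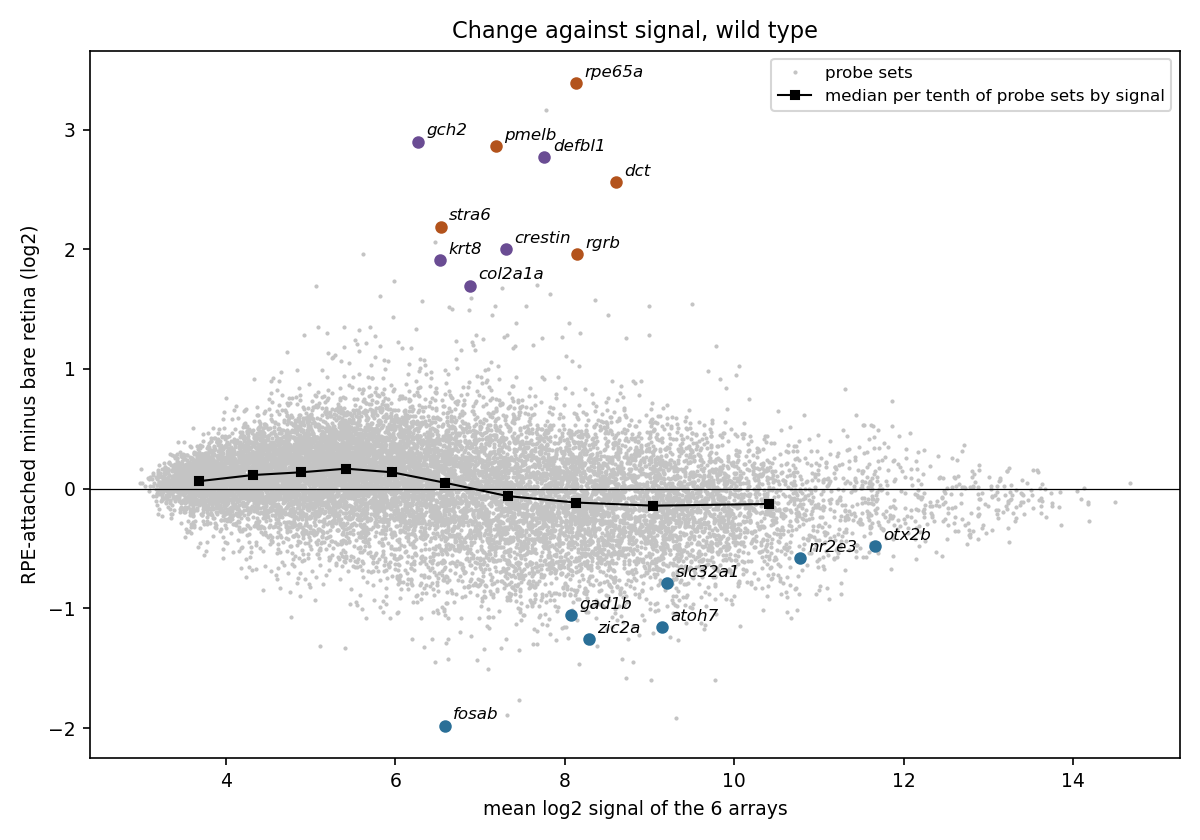
Change between wild type RPE-attached and bare retina (log2) against the mean log2 signal of the 6 arrays, for each probe set and for named genes, with the median per bin (10 bins of equal size by signal) joined by a line. The 5 RPE markers (orange) and gch2, defbl1, crestin, krt8 and col2a1a (purple) lie above a change of 1.6, named lower genes (blue) lie below 0, and the median falls from above 0 at low signal to below 0 at high signal.

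On the lower side no gene reached 4-fold. The largest decrease was that of fosab, an immediate early gene of the Fos family, which had 5.96, 5.09 and 5.73 in RPE-attached retina, against 7.80, 7.20 and 7.71 in bare retina (change -1.98 ± 0.38, 3.94-fold lower, adjusted p = 0.000787). Of its other probe sets, one was lower at -1.01, one was higher at 0.44 and one was not called at 0.28, so they disagree. The gene arhgap46a had 8.13, 8.04 and 8.06 in RPE-attached retina, against 9.51, 9.56 and 9.5 in bare retina (change -1.45 ± 0.09, 2.72-fold lower, adjusted p = 3.82e-09). Other large decreases were those of supt3h, a transcription coactivator subunit (-1.44 ± 0.14), gnsa, a lysosomal sulfatase (-1.42 ± 0.13), ptprk, a receptor phosphatase (-1.33 ± 0.14), and xrcc1, a DNA repair scaffold (-1.33 ± 0.16). A second probe set of ptprk was higher, by 0.33 (adjusted p = 0.0488). The small Maf factor maff fell by 1.32 and the mitochondrial carrier gene slc25a38b by 1.29 on the log2 scale. The RPE-attached means of xrcc1 and maff, 4.74 and 4.45, were under the floor. Among 61 stress and immediate early genes 16 were higher (26.2%) and 12 lower (19.7%). The phosphatase gene dusp2 and the stress gene gadd45ba fell, at -0.94 ± 0.15 and -0.79 ± 0.14, with another probe set of gadd45ba not called at 0.23, and the heat shock gene hsp70.3 rose, at 1.33 ± 0.16.

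Among retinal neurons, amacrine and horizontal cell genes had the largest share lower. Of 34 amacrine and horizontal cell genes, 13 were lower (38.2%) and 3 higher (8.8%), beside 15.5% and 15.4% over all genes. The median was -0.22, at a high median signal of 8.56 in bare retina, where changes of all probe sets were shifted downward. Cyclic loess and repeated quantile normalization each left 10 lower and 4 higher, with medians of -0.11 and -0.16. The gene gad1b, for the enzyme that makes GABA, had 7.64, 7.51 and 7.51 in RPE-attached retina, against 8.72, 8.70 and 8.40 in bare retina (change -1.06 ± 0.13, 2.08-fold lower, adjusted p = 1.21e-05). The vesicular GABA transporter gene slc32a1 had 8.87, 8.86 and 8.72 in RPE-attached retina, against 9.44, 9.80 and 9.57 in bare retina (change -0.79 ± 0.12). The groups did not overlap in either gene. The related enzyme gene gad2 was not called, at 0.13. The summed signal of the 6 markers of these cells was 8817 to 9466 in RPE-attached retina and 11853 to 12578 in bare retina.

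Photoreceptor genes were mixed, with 10 higher (20.4%) and 6 lower (12.2%) of 49 measured, beside 15.4% and 15.5% over all genes. Their median was 0.09. Abundant factors fell: nr2e3 had 10.47, 10.55 and 10.46 in RPE-attached retina, against 11.21, 11.04 and 10.97 in bare retina (change -0.58 ± 0.11), and crx changed by -0.52 ± 0.15, a call lost without RPE-attached replicate 3 (adjusted p = 0.0792), retina replicate 1 (0.0881) or retina replicate 2 (0.0508). The phosphodiesterase subunit gene pde6ha changed by -0.92 ± 0.14, but its probe set with the highest variance changed by 0.96, so its direction depends on the probe set. Phototransduction genes that rose did so at low signal, such as the cone phosphodiesterase gene pde6c at 5.56, 5.63 and 6.14 in RPE-attached retina and 4.68, 4.80 and 4.44 in bare retina. The summed signal of the 6 photoreceptor markers was 4950 to 5761 in RPE-attached retina and 7244 to 8794 in bare retina, with 4 of 6 lower.

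Of 43 ganglion cell genes, 5 were higher (11.6%) and 10 lower (23.3%), beside 15.4% and 15.5% over all genes. Their median of -0.05 became positive, at 0.06, under cyclic loess and under repeated quantile normalization. Of the 5 listed ganglion cell markers 1 was measured, and it was not called, at 0.23. Its linear signal was 646 to 726 in RPE-attached retina and 514 to 621 in bare retina. The ganglion cell determinant atoh7, listed as a progenitor marker, had 8.65, 8.66 and 8.40 in RPE-attached retina, against 9.89, 9.54 and 9.74 in bare retina (change -1.15 ± 0.14, 2.23-fold lower, adjusted p = 1.49e-05). Among 65 progenitor and ciliary margin genes 11 were higher (16.9%) and 15 lower (23.1%). Their median of 0.03 was negative after subtraction of array medians. The factor zic2a had 7.60, 7.70 and 7.69 in RPE-attached retina, against 8.98, 8.88 and 8.89 in bare retina (change -1.25 ± 0.10, 2.38-fold lower, adjusted p = 1.53e-07), and its other probe set, under the floor, was not called (0.12). The eye field genes rx2 and six6a went the other way, at 0.60 ± 0.12 and 0.47 ± 0.10. Bipolar cell and Müller glia genes were split evenly, 4 higher and 4 lower of 27 (14.8% each), near the shares over all genes. Of 33 synaptic genes, 4 were higher (12.1%) and 9 lower (27.3%).

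Genes of cell division were called in both directions, while cytosolic ribosomal protein genes were called less often than all genes either way. DNA replication genes were higher in 7 (14.3%) and lower in 12 (24.5%) of 49 cases. Their median of -0.04 was positive under cyclic loess and repeated quantile normalization. The origin recognition subunit gene orc6 had 7.28, 7.26 and 7.12 in RPE-attached retina, against 8.20, 8.54 and 8.33 in bare retina (change -1.14 ± 0.12, 2.2-fold lower). The proliferation marker gene mki67 rose, at 0.55 ± 0.12, with dimmer probe sets not called at 0.41 and -0.08. Mitosis genes were higher in 10 (20.4%) and lower in 6 (12.2%) of 49 cases. Of 73 cytosolic ribosomal protein genes, 1 was higher (1.4%) and 6 lower (8.2%), beside 15.4% and 15.5% over all genes. Of 86 respiratory chain genes 7 were higher (8.1%) and 10 lower (11.6%). Those counts depended on the setting, with 14 higher and 3 lower under cyclic loess and under repeated quantile normalization. With the replicate number as a block, 12 were higher and 14 lower. Of 65 splicing factor genes 3 were higher (4.6%) and 13 lower (20%). The medians of the ribosomal, respiratory and splicing genes, -0.04, -0.04 and -0.12, turned to 0.07, 0.12 and 0.05 under cyclic loess. These families therefore have no settled direction. Liver, yolk and plasma protein genes were higher in 7 (17.1%, near the 15.4% over all genes) and lower in 2 of 41 cases. Glycolysis genes were higher in 4 and lower in 5 of 33, also near the shares over all genes.

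The same tissue contrast was available on separate arrays of the young mutant, where 24.3% of genes were higher and 18.3% lower. The mutant arrays differ from the wild type ones in genotype, in pool size and in control signals. Hybridization control means were 11.15 on RPE-attached and 9.78 on bare retina arrays of the mutant, against 9.46 and 9.59 in wild type. Poly-A control means were 4.78 and 5.23 in the mutant, against 5.91 and 5.12 in wild type. An effect of genotype on the contrast cannot be told apart from effects of pool size or array run. Of the 1351 genes higher in wild type, 556 were also higher in the mutant, which is 41.2% of the wild type genes and 26.0% of the mutant's, and 66 were lower. Of the 1360 genes lower in wild type, 659 were also lower in the mutant, which is 48.5% of the wild type genes and 40.9% of the mutant's, and 123 were higher. Of the 63 genes at least 2-fold higher in wild type, 51 were called the same way in the mutant (81.0%), with a median of 1.28 in wild type and 1.22 in the mutant. Of the 63 at least 2-fold lower, 49 were called the same way (77.8%), with a median of -1.13 in wild type and -0.70 in the mutant. Both sets were chosen by their wild type changes, so the medians are a description.

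A difference of the contrast between genotypes was called for 21.9% of genes. The listed RPE markers rgrb, stra6, dct and pmelb had mutant changes of 2.1, 2.07, 3.04 and 3.29, and their differences from wild type did not pass. The change of rpe65a was 3.39 in wild type and 2.47 in the mutant, a difference of 0.92 ± 0.26 (adjusted p = 0.0164). That of gch2 was 2.90 in wild type and 1.60 in the mutant, a difference of 1.3 ± 0.44 (adjusted p = 0.0423). In crestin the mutant change was the larger, with 2.00 in wild type and 3.45 in the mutant, a difference of -1.44 ± 0.19 (adjusted p = 7.22e-05). The same held for plvapb, with 0.89 in wild type and 2.2 in the mutant (difference -1.31 ± 0.15). Among the lower genes, fosab and jupa had changes of 0.17 and 0.39 in the mutant, and the differences of -2.15 ± 0.54 and -1.71 ± 0.17 passed.

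**Figure D5:**
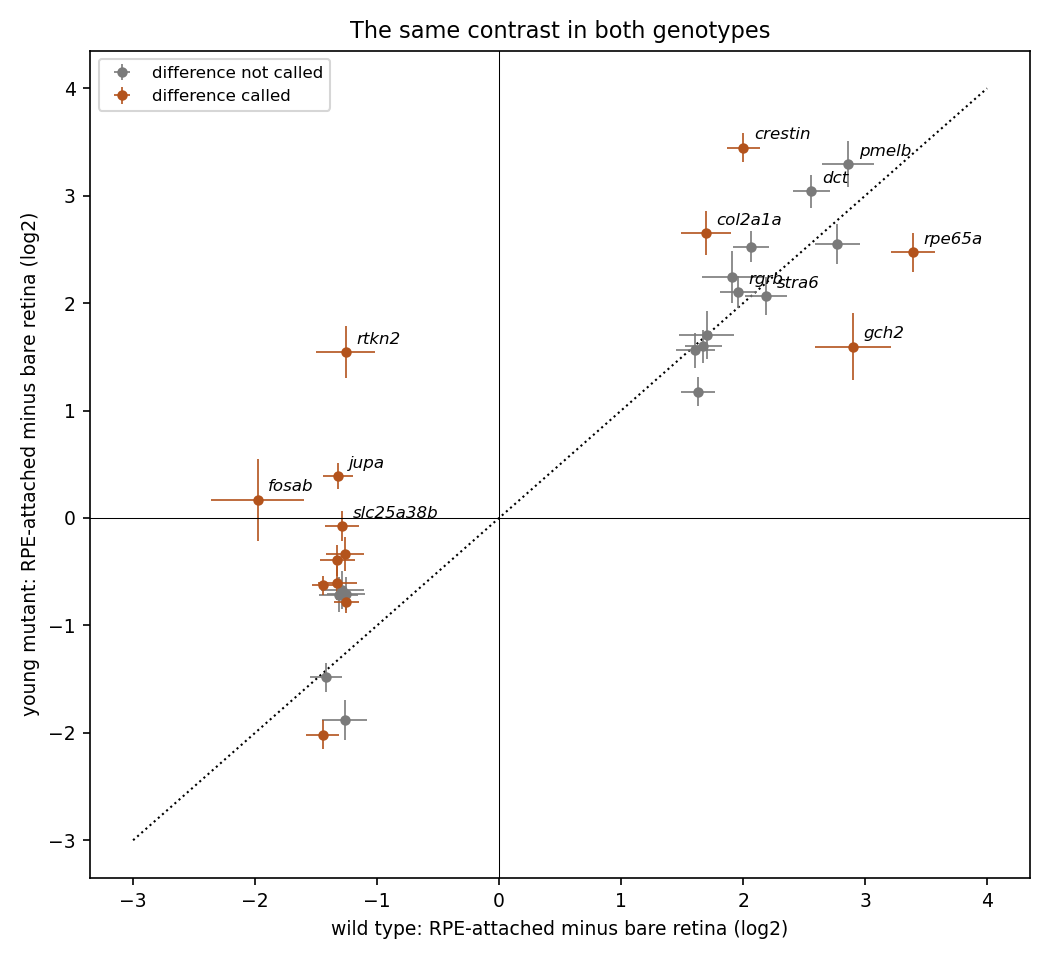
Change between RPE-attached and bare retina (log2 ± SE) in wild type (horizontal) and in the young mutant (vertical), for the 5 RPE markers and the 15 largest changes of genes with an established symbol in each direction, with the dotted line at equal changes and colour for genes whose difference was called. The differences of the 4 RPE markers other than rpe65a were not called, while those of rtkn2, fosab, jupa, crestin and gch2 were.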

How the data were processed

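RNA of 18 pools was amplified in 2 cycles, labelled with biotin and hybridised to Affymetrix zebrafish arrays, per the labels' protocols. The authors' deposited values are log2 signals, background-adjusted, normalized and summarized by RMA (affy, R 2.2.0, per the submitters' processing notes). Here 115 control probe sets were set aside and 15502 were fitted with limma 3.58.1 in R 4.3.3, with 6 group means over the 18 arrays, which share 1 estimate of the spread, and eBayes. A single gene symbol was given for 10795 of them, more than 1 for 135, and 4572 were unnamed here. The script was tested on simulated data. Figures used matplotlib 3.10.9.

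Genes named are the 5 RPE markers, the 15 largest called changes in each direction without overlap, among genes with an established symbol and a higher group above the floor, and up to 6 members of each of 29 lists by smallest p. Members given as not called, defining markers, and col1a1a, crx, cyp26a1, kdrl, otx2a, otx2b, rx2, six6a, col15a1b, tfap2a, tfap2c and wu:fc46h12 fall outside that rule and were chosen after their values were seen. The members and lists were chosen with earlier results of these data known. Depth has no meaning for arrays, and their number limits the precision.

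Replicate numbers were checked for pairing: the correlations of same-numbered RPE-attached and retina arrays' deviations were 0.156, 0.0541 and 0.116, not all above 0.1, so no block was used. Alternatives covered thresholds, a filter on low signal, normalization, priors, array weights, arrays in the fit, the probe set per gene and leaving out each array.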

Additional observations from a re-analysis of the deposited data

Results flagged for a closer look

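The mean of the poly-A control probe sets, which enter no comparison, was 0.78 higher on the log2 scale on wild type RPE-attached than on wild type retina arrays.

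The contrast of RPE-attached against bare retina differed between wild type and mutant for 40 of the 114 genes named above, beside 21.9% over all genes. The test was a limma test of the difference itself at an adjusted p under 0.05. Most of these genes were named for their changes on the wild type arrays, which also enter the difference, so the count is a description. Pool size and control signals also differed between these arrays, so genotype cannot be told apart from them here. Differences are wild type minus mutant, log2. Among pigment, RPE and melanosome genes they were 0.92 for rpe65a, 1.3 for gch2, 0.75 for slc2a11b, 1.00 for atic, 0.58 for pcbd1, 1.41 for cst3, 1.27 for snapin, -0.81 for tmem33 and -0.69 for rlbp1a. Lysosomal genes had -0.88 for ctsd and -0.78 for lgmn. Crest and matrix genes had -1.44 for crestin, -0.58 for sox10, -1.43 for col1a1a and -0.96 for col2a1a. Vessel and leukocyte genes had -1.31 for plvapb, -0.86 for kdrl, -0.76 for tpst1, 0.70 for flt4, 0.89 for aqp1a.1, -1.34 for cxcr4b and 0.52 for mpx. Signalling genes had 0.80 for smad6a and 0.60 for tcf7l1a. Retinal genes had -1.02 for gad1b, -1.01 for pde6ha, 0.90 for pde6c, 0.50 for nr2e3, 0.61 for six6a and -0.47 for zic2a. Among other genes the differences were -2.80 for rtkn2, -2.15 for fosab, -1.71 for jupa, -0.81 for perp, -1.21 for slc25a38b, -0.93 for ptprk, -0.82 for arhgap46a, -0.72 for xrcc1, 0.58 for supt3h and -0.59 for gadd45ba. The largest of these, rtkn2, had a change of -1.26 in wild type and 1.55 in the mutant.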

How the results depend on the processing

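Against 4533 probe sets and 2711 genes called, an adjusted p under 0.001 left 1128 probe sets and 712 genes, and 424 probe sets for the difference between genotypes. A 2-fold minimum left 208 probe sets and 126 genes. Leaving out each of the 6 arrays gave 3071 to 4019 probe sets and 1846 to 2403 genes, and leaving out each of the 12 arrays of both genotypes gave 2302 to 3454 probe sets for the difference. Array medians subtracted split the called probe sets into 1620 higher and 2864 lower, against 2361 and 2172. No called gene among those named changed direction except pde6ha, at 0.96, and tp63, at -0.032, when the most variable probe set stood for the gene. Cyclic loess, chosen after seeing the data, ended 6 of the 114 named genes' calls and repeated quantile normalization 7, tyr, ctsd, qdpra, tfap2a and tie1 under both; the cause was not tested. With the replicate number as a block, 5645 probe sets and 3324 genes were called, and 3050 probe sets for the difference; the numbers are not shown to pair the arrays, although each array correlated best with its own number. Signal over background limits genes under the floor, and 3 arrays a group limit precision.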
